A study of Mus musculus with 2 samples.

Results

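The genes described here are 10 that are used as markers of cortical interneurons, chosen by symbol among the 21938 protein-coding genes of the GENCODE mouse annotation. They are the peptide genes Sst, Vip, Npy, Cck and Crh, the calcium-binding protein genes Pvalb, Calb1 and Calb2, the matrix protein gene Reln and the membrane protein gene Lamp5. Their chromatin was read from DNase-seq of frontal cortex tissue. The mice were females of B6CASTF1/J, a cross between C57BL/6J and CAST/EiJ, aged 25 days, with no treatment in the labels. DNase I cuts DNA that nucleosomes leave exposed, so a dense cluster of cuts (a peak) marks open chromatin, and a short uncut stretch inside it (a footprint) marks bases that something covered. The series holds 1 group with 2 libraries, replicate 1 and replicate 2, so no conditions could be compared and no p-value could be computed. The labels call the libraries separate biological replicates but list them under the same donor, so their spread may not be one between animals.

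Cortical interneurons are the local inhibitory neurons that release GABA, and they are sorted into classes by the peptides and calcium buffers they make. Parvalbumin cells contact the cell body and the start of the axon of pyramidal neurons, somatostatin cells contact their dendrites, and VIP cells mostly contact other interneurons. Reelin and LAMP5 mark neurogliaform cells and neurons of the outermost layer, and several of these genes, Cck and Calb1 among them, are also used by excitatory neurons. Interneurons are a minority of the cells in bulk cortex. In such tissue, a site open in few cells and a site weakly open in many cells cannot be told apart.

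A promoter peak was a peak of the authors' longer list within 1 kb of any annotated transcription start site (TSS) of a gene. Its value was the authors' read-depth normalized signal, on a scale that is not stated. Of the 10 marker genes, 8 (80%) carried such a peak in both libraries, against 61.5% of all protein-coding genes. Sst and Vip had none in either library, as did 34.5% of all protein-coding genes. The median promoter value of the 8 open genes was 0.657, against 2.34 over all 13489 protein-coding genes open in both libraries, and all 8 lay below that genome-wide median. By mean value the order was Calb2, Cck, Calb1, Pvalb, Lamp5, Crh, Reln and Npy. The libraries' values overlapped among Calb2, Cck and Calb1, between Pvalb and Lamp5, and between Crh and Reln. They did not overlap between these sets of neighbours. Reln and Npy stood apart only narrowly, at 0.418 and 0.412 in replicate 1. The Reln promoter region called in both libraries had 0.362 in replicate 1, within the 0.297 to 0.412 of Npy.

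**Figure D1:**
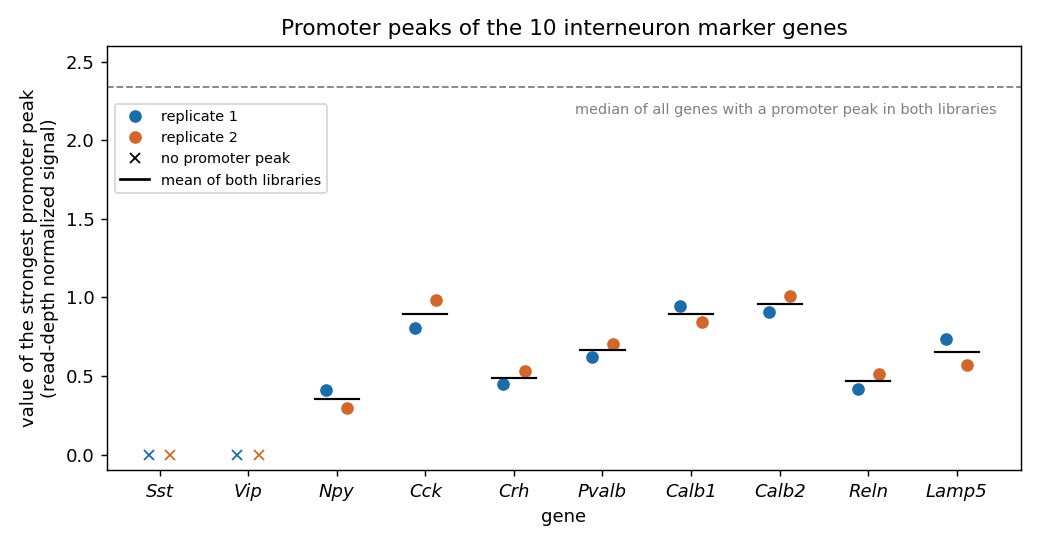
Value of the strongest promoter peak of each marker gene (vertical axis, read-depth normalized signal) in replicate 1 and replicate 2 (points), with their mean (bars) and crosses for genes with no promoter peak. All 8 open genes sit below the dashed line at 2.34, the median of all genes open in both libraries, and Sst and Vip have no peak.

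No more than 5 of the 10 genes (Npy, Cck, Calb1, Calb2 and Crh) had a peak in both libraries when the annotated 5′ end alone was counted, against 56.7% of all protein-coding genes. Pvalb, Reln and Lamp5 were open in both libraries only at an internal start site. For Reln, the strongest promoter peaks of the libraries lay at different sites. Among all genes open in both libraries, 7.79% lacked a peak at the 5′ end in at least 1 library. At start sites of protein-coding transcripts, 7 of the 10 were open in both libraries, against 60.1% of all protein-coding genes, and the gene lost was Reln. Each library alone had 8 open marker genes, against 64.1% of all genes in replicate 1 and 62.9% in replicate 2. On the authors' shorter peak list 3 of the 10 were open in both libraries, against 55.6% of all genes. With 500 bp and 2.5 kb in place of 1 kb, 7 and 8 were, against 59.8% and 64.5%.

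Sst encodes somatostatin, a peptide that inhibits the release of other transmitters and hormones. The gene is 1.39 kb long (chr16:23889573-23890958, minus strand) with 1 annotated TSS, and no peak of either library lay within 1 kb of it. The table of the cut rate's false discovery rate listed 0 positions at or below 0.05 in that window in replicate 1 and 7 in replicate 2, the lowest at 0.0476. Its promoter holds 37 CpG dinucleotides in the 1 kb around the 5′ end, and 76.5% of the 1645 protein-coding genes within 5 of that number were open at a promoter in both libraries. Of all genes with no peak at the 5′ end, 2.46% in replicate 1 and 2.78% in replicate 2 had any listed position there.

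Vip encodes vasoactive intestinal peptide, which in cortex is released by interneurons that inhibit other interneurons. Neither of its 2 annotated TSS (gene at chr10:5639218-5647617, plus strand) had a peak, and no position within 1 kb of the 5′ end was listed in either library. Its promoter is poor in CpG, with 11 in the 1 kb, and 22.0% of the 4268 genes with a like number were open in both libraries. Sst and Vip thus shared the absence of a promoter peak but differed in CpG content.

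The promoter windows of Sst, Vip and Cck are shown because these peptide genes are textbook targets of cyclic AMP signalling, which acts through the cyclic AMP response element (CRE), TGACGTCA, or one arm of it, TGACG. The windows are RefSeq's, on GRCm38.p6 (mm10), 250 bases before to 50 after a start, on the strand of the gene, and the capitals mark the CRE, its arm and the TATA box TATAAA. RefSeq windows were at hand for 7 of the 10 genes (Sst, Vip, Npy, Cck, Pvalb, Reln and Lamp5) and not for Crh, Calb1 and Calb2.
Sst promoter, chr16:23890795-23891094, minus strand: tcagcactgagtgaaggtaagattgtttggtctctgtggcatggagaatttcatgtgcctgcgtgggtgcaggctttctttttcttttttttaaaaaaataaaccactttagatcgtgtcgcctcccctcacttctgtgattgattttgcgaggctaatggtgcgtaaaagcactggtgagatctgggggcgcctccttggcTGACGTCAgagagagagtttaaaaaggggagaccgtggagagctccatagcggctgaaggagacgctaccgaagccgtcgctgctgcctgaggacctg
Vip promoter, chr10:5638968-5639267, plus strand: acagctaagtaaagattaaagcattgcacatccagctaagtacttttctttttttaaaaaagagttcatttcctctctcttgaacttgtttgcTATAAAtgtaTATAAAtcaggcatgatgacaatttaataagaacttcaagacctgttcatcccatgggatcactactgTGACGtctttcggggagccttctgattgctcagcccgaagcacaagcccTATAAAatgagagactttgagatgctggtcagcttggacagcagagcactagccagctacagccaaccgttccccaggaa
Cck promoter, chr9:121495645-121495944, minus strand: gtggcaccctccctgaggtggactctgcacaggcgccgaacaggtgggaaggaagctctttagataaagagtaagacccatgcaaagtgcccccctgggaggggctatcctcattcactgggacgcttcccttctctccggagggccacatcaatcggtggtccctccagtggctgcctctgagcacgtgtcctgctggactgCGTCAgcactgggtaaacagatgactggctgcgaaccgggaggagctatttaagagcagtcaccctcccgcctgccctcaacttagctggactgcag

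Searched on both strands, the full CRE stood in 1 of these windows, that of Sst, starting 48 bases before the start, and in 1.79% of the 32851 RefSeq windows of the mouse. The single arm, which the full element contains on each strand, was found in Vip 79 bases before the start and, read on the other strand, in Cck 47 bases before it. It was present in 20.8% of all windows. TATAAA was found at 3 places in Vip, the nearest 30 bases before the start, and in 13.6% of all windows. Sst and Vip, which hold these letters, had no peak over them, and Cck, which holds the arm, had one. A match says only that the letters are there.

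Npy encodes neuropeptide Y, made by neurogliaform and many somatostatin cells. Its promoter (gene at chr6:49822710-49829507, plus strand, 1 TSS) had a value of 0.412 in replicate 1 and 0.297 in replicate 2, a mean of 0.355 ± 0.0817 (SD, n = 2). Only 0.619% of the genes open in both libraries had a lower mean. Its 1 kb holds 61 CpG, and the genes within 5 of that number were open in both libraries in 91.2% of cases, with a median value of 2.69. The Npy peak, chr6:49822541-49822754, spans the TSS and held no footprint in either library. A second peak 0.54 kb upstream (0.291) was called in replicate 2 only.

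Cck encodes cholecystokinin, a peptide of a class of basket cells and of many pyramidal neurons. Its promoter (gene at chr9:121489824-121495694, minus strand, 6 TSS) had values of 0.808 and 0.982 in replicates 1 and 2, a mean of 0.895 ± 0.123 (SD, n = 2), above 14.6% of the open genes. It holds 16 CpG in the 1 kb, and 32.1% of the 3175 genes with a like number were open in both libraries, at a median of 1.26. The peak held 2 footprints in replicate 1 and 4 in replicate 2, and no footprint of one library overlapped one of the other. A further peak, 0.625 kb upstream of the 5′ end, had 0.429 in replicate 1 and 0.851 in replicate 2.

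Crh encodes corticotropin-releasing hormone, the hypothalamic stress peptide that is also made by cortical interneurons. The gene is short, 2.00 kb (chr3:19693401-19695396, minus strand, 1 TSS), and its strongest open region was not at the start. The promoter peak, chr3:19694521-19694740, lay with its centre 0.766 kb inside the gene and had values of 0.446 and 0.531, a mean of 0.489 ± 0.0599 (SD, n = 2), above 2.81% of the open genes. A region 1.30 kb from the 5′ end, chr3:19693981-19694220, overlapping an exon, had 2.06 in replicate 1 and 1.28 in replicate 2, a mean of 1.67 ± 0.550 (SD, n = 2). Both libraries were higher in the exonic region than at the promoter peak. A peak nearer the start, 0.278 kb inside the gene, was called in replicate 2 only (0.383). The last region of the locus lay 1.80 kb past the 3′ end, inside Trim55, with 0.808 and 0.634.

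**Figure D2:**
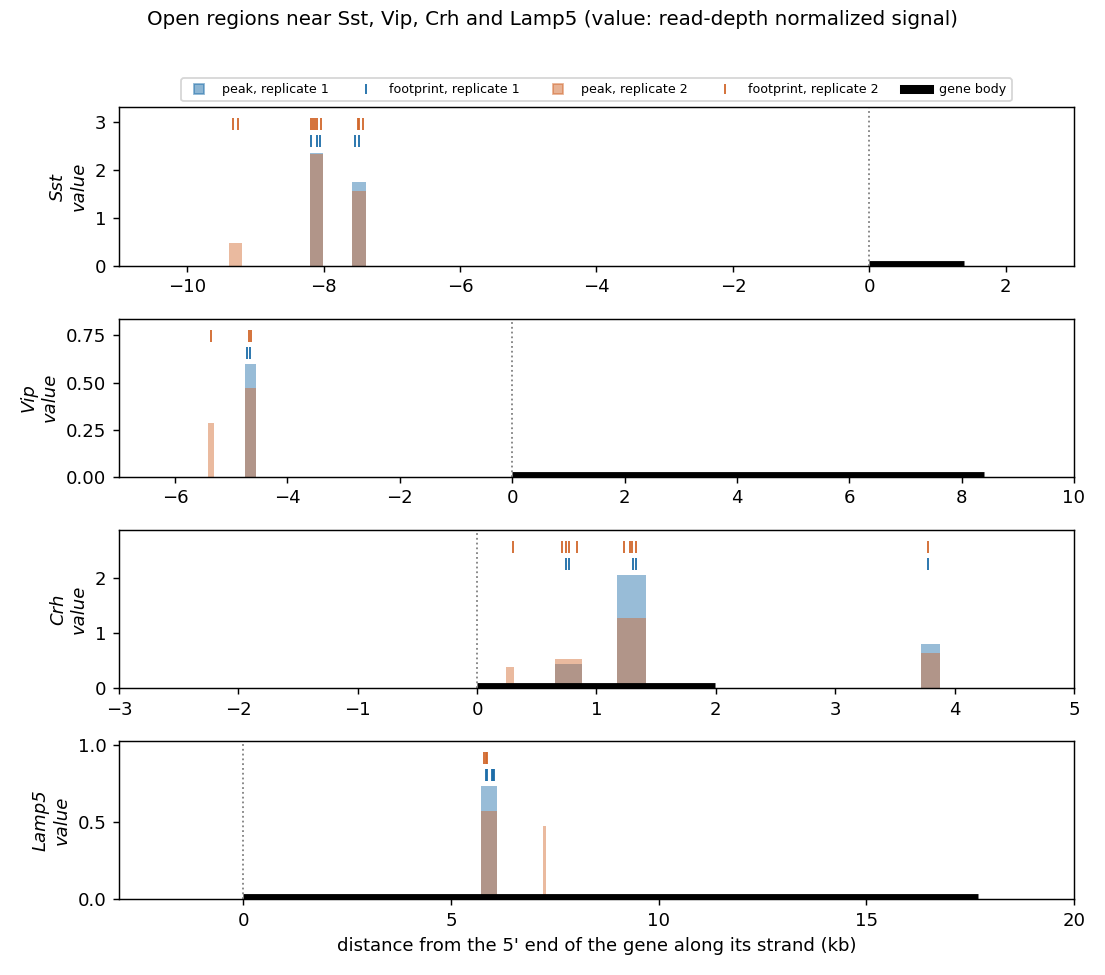
Peaks (bars, height in read-depth normalized signal, overlaps darker) and footprints (ticks above) of replicates 1 and 2 by distance from the 5′ end along the strand of the gene (kb) at Sst, Vip, Crh and Lamp5. The Sst and Vip starts carry no peak, the strongest Crh region lies 1.30 kb inside the gene, and the Lamp5 peak lies 5.91 kb inside it.

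Pvalb encodes parvalbumin, the calcium buffer of fast-spiking interneurons. It has 2 annotated TSS (gene at chr15:78191114-78206400, minus strand), and the peak that both libraries called, chr15:78204201-78204408, covers the inner one, with its centre 2.10 kb from the 5′ end. Its values were 0.622 and 0.702, a mean of 0.662 ± 0.0571 (SD, n = 2), above 7.60% of the open genes. Near the 5′ end, replicate 1 had a peak 0.938 kb inside the gene (0.497) and replicate 2 had none. Within 1 kb of the 5′ end, 99 positions were listed at a false discovery rate of at most 0.05 in replicate 1, and 0 in replicate 2. The sequence of the inner peak is shown because the open Pvalb start is this one. Capitals mark bases inside a footprint of both libraries, read from the mm10 genome on the strand of the gene.
Pvalb inner start, chr15:78204201-78204408, minus strand: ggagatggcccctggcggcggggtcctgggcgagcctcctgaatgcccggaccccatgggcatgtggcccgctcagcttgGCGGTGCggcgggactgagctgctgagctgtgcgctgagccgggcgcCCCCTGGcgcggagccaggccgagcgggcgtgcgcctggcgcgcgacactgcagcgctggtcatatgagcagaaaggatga

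Each library had 2 footprints in this peak, and both pairs overlapped between libraries over 7 bases. The wider ones, in replicate 1, covered 24 and 13 bases.

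Calb1 encodes calbindin, found in somatostatin cells and in pyramidal neurons of the upper layers, and Calb2 encodes calretinin, found in many VIP cells. Calb1 (chr4:15881264-15908064, plus strand, 3 TSS) had promoter values of 0.944 and 0.845, a mean of 0.894 ± 0.0697 (SD, n = 2). Calb2 (chr8:110137502-110168210, minus strand, 2 TSS) had 0.904 and 1.01, a mean of 0.957 ± 0.0754 (SD, n = 2), the highest of the 8 open genes. They stood above 14.6% and 16.3% of the open genes. Both promoters hold 46 CpG in the 1 kb, a class of 2012 genes of which 87.3% were open in both libraries at a median of 2.25, so both genes had less than the median value of their class. Both peaks spanned the 5′ end.

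These starts, with that of Cck, were also the ones with dense evidence in the table of the cut rate's false discovery rate. Calb1 had 334 and 379 positions under 0.001 within 1 kb of the 5′ end in replicates 1 and 2, Calb2 had 258 and 298, and Cck had 255 and 174. Of the other 7 genes, only Crh had any, 50 in replicate 2. At Calb1 a second region 0.533 kb inside had 0.407 and 0.286, and another, 1.18 kb inside in an intron, had 0.525 and 0.348.

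Reln encodes reelin, the secreted protein that guides neuron placement in development and is made by layer 1 and neurogliaform cells in later life. It is the largest of the 10 genes (chr5:21884454-22344702, minus strand, 460 kb, 10 TSS) and has the most CpG, 148 in the 1 kb. Of the 66 protein-coding genes with a like number, 97.0% were open in both libraries, at a median of 2.02. At the 5′ end Reln had 0.418 in replicate 1, from a peak 0.488 kb inside the gene, and no peak in replicate 2, with 158 listed positions in replicate 1 and 0 in replicate 2. The region that made it count as open in both libraries, chr5:21894241-21894433, lies 450 kb into the gene beside a TSS of a non-coding transcript of Reln, and had 0.362 and 0.514. The strongest promoter peaks of the libraries, 0.418 and 0.514, are therefore not the same site, and their mean of 0.466 ± 0.0677 (SD, n = 2) describes no single region. The RefSeq promoter window is shown because it is the most CpG-rich of the set and had little sign of being open. Capitals mark the GC box GGGCGG.
Reln promoter, chr5:22344656-22344955, minus strand: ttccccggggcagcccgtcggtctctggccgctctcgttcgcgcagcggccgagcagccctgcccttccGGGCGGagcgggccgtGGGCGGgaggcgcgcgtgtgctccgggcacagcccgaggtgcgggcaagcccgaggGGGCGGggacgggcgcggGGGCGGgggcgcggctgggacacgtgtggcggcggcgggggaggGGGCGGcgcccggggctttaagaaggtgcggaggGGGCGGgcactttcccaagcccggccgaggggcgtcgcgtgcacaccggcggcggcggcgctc

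The window holds 6 GC boxes on the strand of the gene, and 35.7% of all RefSeq windows hold at least 1.

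Lamp5 encodes a membrane protein of the LAMP family that marks neurogliaform cells. It has 4 TSS (chr2:136052239-136069917, plus strand), and neither library had a peak or a listed position within 1 kb of the 5′ end. Its promoter peak, chr2:136057961-136058341, spans an inner TSS with its centre 5.91 kb into the gene, with 0.735 in replicate 1 and 0.571 in replicate 2, a mean of 0.653 ± 0.116 (SD, n = 2), above 7.27% of the open genes. A further peak at another inner TSS, with its centre 7.24 kb into the gene, was called in replicate 2 only (0.474). The 5′ end holds 10 CpG in the 1 kb, and 19.5% of the 4552 genes with a like number were open in both libraries. The first 300 bases of the shared peak, merged from both libraries, are shown, with capitals for bases inside a footprint of both libraries. The replicate 1 footprints behind these capitals lay outside the called peaks of replicate 1, and those of replicate 2 lay inside a peak of replicate 2.
Lamp5 inner start, chr2:136057961-136058260, plus strand: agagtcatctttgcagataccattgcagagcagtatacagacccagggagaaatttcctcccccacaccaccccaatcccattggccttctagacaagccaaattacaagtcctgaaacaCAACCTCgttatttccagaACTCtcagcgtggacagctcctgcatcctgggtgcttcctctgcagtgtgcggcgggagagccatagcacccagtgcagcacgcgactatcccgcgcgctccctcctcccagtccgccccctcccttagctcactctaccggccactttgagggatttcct

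Away from the starts, the loci were read as each gene body with 50 kb on either side. Distances are given to the centre of a region. The loci held 77 regions after overlapping peaks of both libraries were merged. Both libraries called 43 of them (55.8%), replicate 1 alone 20 and replicate 2 alone 14. Over the genome 53.6% of 109538 merged regions were called in both libraries, so the loci stood near the background. Of the 77 regions, 15 lay at promoters of the marker genes and 13 at promoters of other protein-coding genes. The remaining 49 lay outside all protein-coding promoters: 2 overlapped an exon and 11 an intron of the marker gene, 11 lay in the body of another gene and 25 were intergenic. Both libraries called 25 of these 49.

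The number of regions differed widely among the loci. Pvalb had 15, 8 of them in both libraries, Reln 12 with 6 in both, Cck 11 with 7, Npy 9 with 3 and Calb2 8 with 4. Calb1 had 6 with 5 in both, Lamp5 6 with 3, Crh 4 with 3, and Sst and Vip 3 with 2 each. Per 100 kb the highest were Pvalb at 13.0 and Cck at 10.4 and the lowest was Reln at 2.14, where the length of the gene enters. The median over the 10 loci was 4.92 per 100 kb, against 6.29 over all protein-coding genes, and 7 of the 10 were below the genome-wide median. By the mean of both libraries, the strongest peaks in these loci belonged to starts of neighbours: Cmtr2 in the Calb2 locus (5.69 and 7.85), Ift27 in the Pvalb locus (4.48 and 5.78) and Nbn in the Calb1 locus (2.31 and 2.43).

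**Figure D3:**
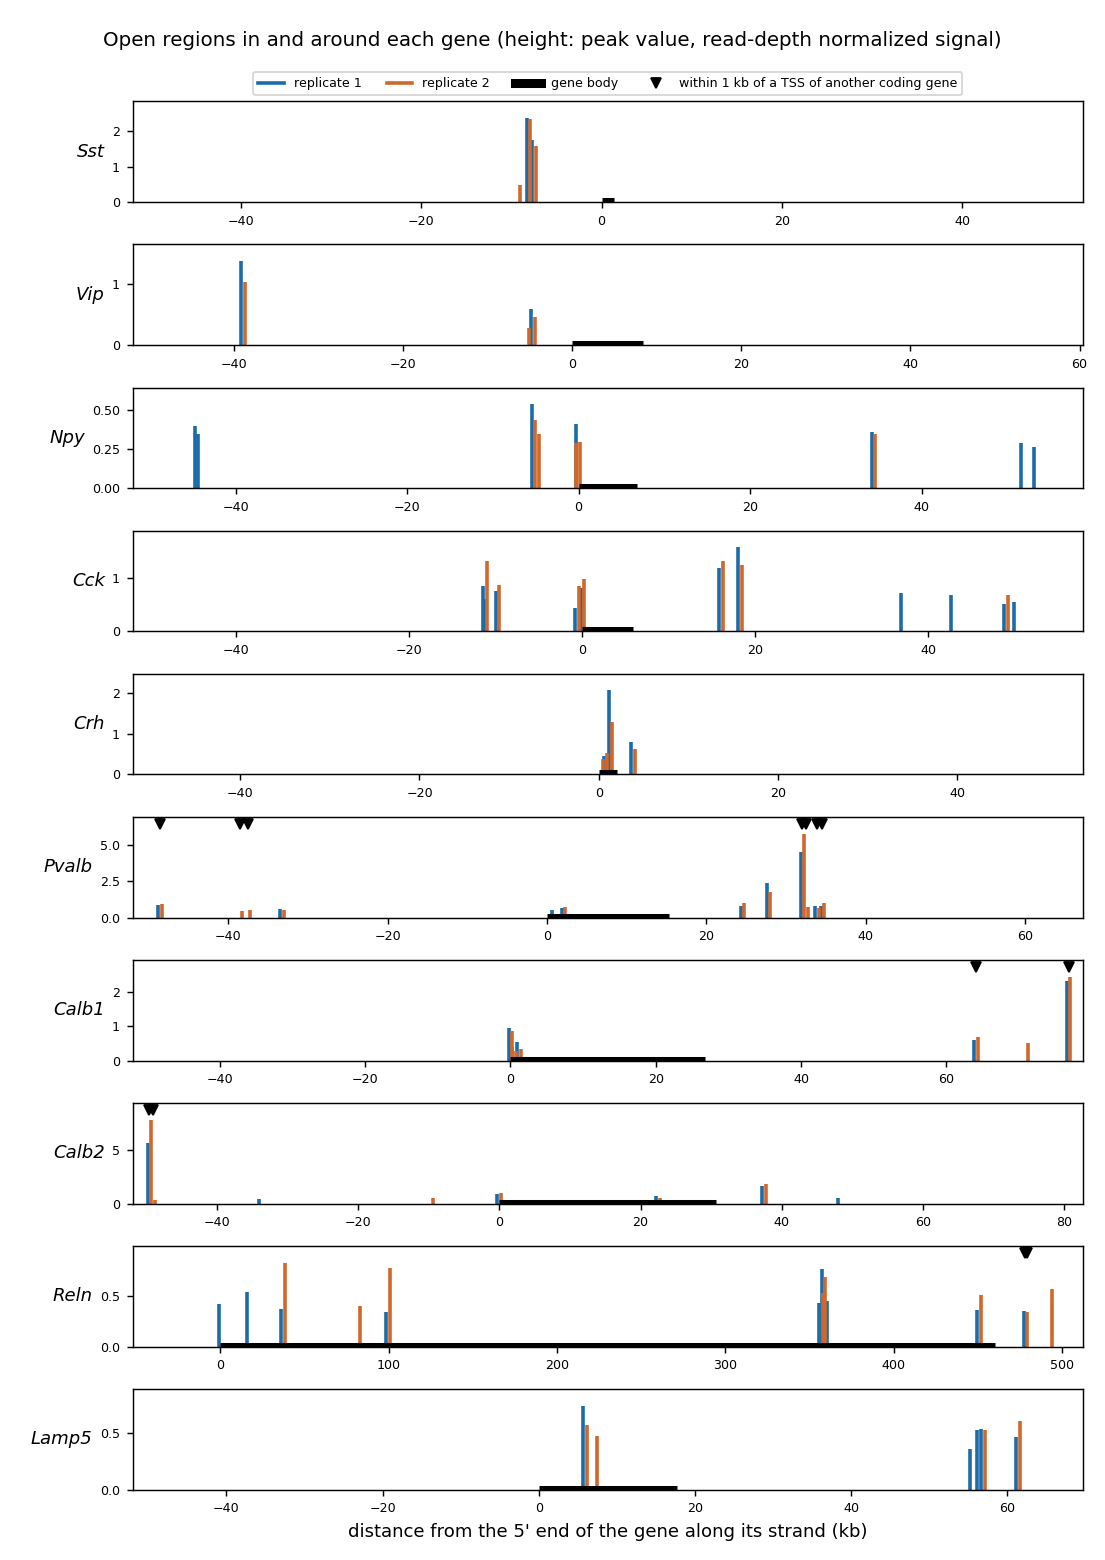
Peaks in each gene body (black bar) and 50 kb on either side, by distance from the 5′ end along the strand of the gene (kb), with height in read-depth normalized signal on a scale of its own for each gene. Lines of replicates 1 and 2 are set slightly apart, triangles mark regions at starts of other coding genes, and 3 intronic Pvalb peaks with values up to 0.141 are hidden by the gene bar. The regions of Sst stand in 1 cluster upstream, and those of Pvalb and Cck are spread on both sides.

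By the mean of both libraries, the strongest shared region outside promoters lay beside Sst, which had no promoter peak. It is chr16:23898961-23899160, 8.10 kb upstream of the 5′ end, with 2.36 in replicate 1 and 2.32 in replicate 2, a mean of 2.34 ± 0.0228 (SD, n = 2). Of the 58659 regions shared by both libraries genome-wide, 86.4% had a lower mean. A second region, chr16:23898341-23898540, 7.48 kb upstream, had 1.74 and 1.56, a mean of 1.65 ± 0.124 (SD, n = 2). A weaker one, 9.29 kb upstream, was called in replicate 2 only (0.468). No other region was called in the whole Sst locus, so the 2 shared ones, under 1 kb apart, carried all of its shared openness.

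The next by mean was downstream of Pvalb, chr15:78178481-78178700, 12.5 kb past the 3′ end, with 2.40 and 1.79, a mean of 2.09 ± 0.430 (SD, n = 2). It exceeded the stronger Sst region in replicate 1 but not in replicate 2, and it exceeded the Pvalb start in both libraries. The region at the Ift27 start (4.48 and 5.78), 16.8 kb past the Pvalb 3′ end, lay closer to it than either Pvalb start. A region downstream of Calb2, chr8:110130581-110130780, 6.82 kb past the 3′ end, had 1.64 and 1.83, a mean of 1.74 ± 0.129 (SD, n = 2). The exonic Crh region described above, with a mean of 1.67, and the weaker Sst region completed the 5 strongest. 

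In the other loci the strongest shared region outside promoters was weaker. Cck had one 18.2 kb downstream of the 5′ end and 12.3 kb past the 3′ end, chr9:121477401-121477600, with 1.58 and 1.24. Vip had one 38.9 kb upstream, inside Myct1, with 1.37 and 1.03, and a nearer one 4.66 kb upstream, chr10:5634461-5634660, with 0.599 and 0.468. Reln had one in an intron 358 kb into the gene with 0.768 and 0.685. Npy had one 5.27 kb upstream with 0.537 and 0.434, Lamp5 one inside Pak7, 43.7 kb past the 3′ end, with 0.458 and 0.600, and Calb1 the intronic region given above. Distance is the only link between these regions and the genes here. Of the 8 genes with an open promoter, 6 (all but Calb1 and Lamp5) had a region outside promoters that exceeded the promoter in each library, against 25.5% of all open genes. Among the 2193 open genes whose promoter value was no higher than that of Calb2, the share was 66.8%, so the count was near the background of weak promoters.

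The shared regions nearest to Sst and Vip are shown because Sst and Vip had no promoter peak. The strong region between Pvalb and the Ift27 start is shown because it exceeded the open Pvalb start. Each was read from the mm10 genome on the strand of the named gene, with capitals for bases inside a footprint of both libraries.
Sst, 8.10 kb upstream, chr16:23898961-23899160, minus strand: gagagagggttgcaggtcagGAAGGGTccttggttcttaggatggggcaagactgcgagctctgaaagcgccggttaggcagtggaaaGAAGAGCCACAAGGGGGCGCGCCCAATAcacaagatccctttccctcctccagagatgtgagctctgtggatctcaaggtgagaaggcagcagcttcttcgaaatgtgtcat
Sst, 7.48 kb upstream, chr16:23898341-23898540, minus strand: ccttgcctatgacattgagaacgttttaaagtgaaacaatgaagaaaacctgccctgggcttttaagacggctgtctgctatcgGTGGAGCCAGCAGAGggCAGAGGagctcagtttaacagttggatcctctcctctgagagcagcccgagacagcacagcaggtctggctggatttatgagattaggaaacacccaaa
Vip, 4.66 kb upstream, chr10:5634461-5634660, plus strand: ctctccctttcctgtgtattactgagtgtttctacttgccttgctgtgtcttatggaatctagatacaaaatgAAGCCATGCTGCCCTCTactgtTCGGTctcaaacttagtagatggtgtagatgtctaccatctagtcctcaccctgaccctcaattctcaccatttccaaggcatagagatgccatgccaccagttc
Pvalb, 12.5 kb past the 3′ end, chr15:78178481-78178700, minus strand: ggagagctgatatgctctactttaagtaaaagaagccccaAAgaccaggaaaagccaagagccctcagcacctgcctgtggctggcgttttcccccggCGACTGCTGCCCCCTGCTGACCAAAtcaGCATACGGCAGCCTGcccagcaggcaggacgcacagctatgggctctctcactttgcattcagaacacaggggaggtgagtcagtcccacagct

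The widest shared footprint of each of these regions, 28, 15, 17 and 25 bases long in the order shown, overlapped the letters CANNAGNGG. These letters, read on either strand, are part of the motif bound by CTCF, a factor of chromatin loops and insulators. They were searched for after the footprints of Sst had been read, so the finding in Sst chose the letters. They are common: 20.5% of all merged regions held them in their central 200 bases. The share was 32% (8 of 25) among the shared regions outside promoters in the 10 loci. These sets are unlike, since all merged regions include promoters and regions not called in both libraries. Footprints of both libraries had 65 stretches in common in the 10 loci. Of these, 6 (9.23%) touched the letters, against 7.72% of 100682 over the genome. The other 2 of the 6 lay in the exonic Crh region and in the region 18.2 kb downstream of the Cck 5′ end. Both Sst regions are counted in the 8, and their widest shared footprints are counted in the 6. Part of each count was thus fixed by the choice of the letters. Neither comparison can therefore tell whether the letters are more frequent in these loci.

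The loci held 129 footprints in replicate 1 and 123 in replicate 2, of which 121 and 119 lay in a peak. A footprint stood in 50 of 64 peaks (78.1%) in replicate 1, against 80.6% of peaks genome-wide, and in 50 of 58 (86.2%) in replicate 2, against 78.9%. Of the 129, 58 (45.0%) overlapped a footprint of the other library, against 43.6% genome-wide, and of the 123, 60 (48.8%), against 49.5%. The distal Calb2 region was an example of a dense and largely repeated pattern: each library had 5 footprints there, and all 5 of replicate 1 overlapped one of replicate 2. In the other direction, the replicate 2 footprint at chr8:110130588-110130594 overlapped none of replicate 1. At the Cck promoter no footprint was in common, and the Npy promoter peak held none.

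The spread between libraries set how far single values could be read. Over all shared regions of the genome, the log2 of replicate 1 over replicate 2 had a median of -0.14, an SD of 0.39 and a central 95% from -0.91 to 0.62. Of the 43 shared regions of the loci, 4 fell outside this range. Of these, 2 intronic Reln regions were higher in replicate 2, with 0.345 and 0.777 at 99.5 kb (log2 ratio -1.17) and 0.367 and 0.828 at 37.4 kb (log2 ratio -1.17). The upstream Cck promoter peak was also higher in replicate 2 (log2 ratio -0.99), and the exonic Crh region was higher in replicate 1 (log2 ratio 0.68). Reln thus had 2 of the 4 and, at its 5′ end, a peak in replicate 1 only. Both Reln regions were weak, with means above 22.5% and 26.6% of the shared regions of the genome. The range was taken over regions of all strengths, and whether weak regions vary more between libraries was not tested.

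**Figure D4:**
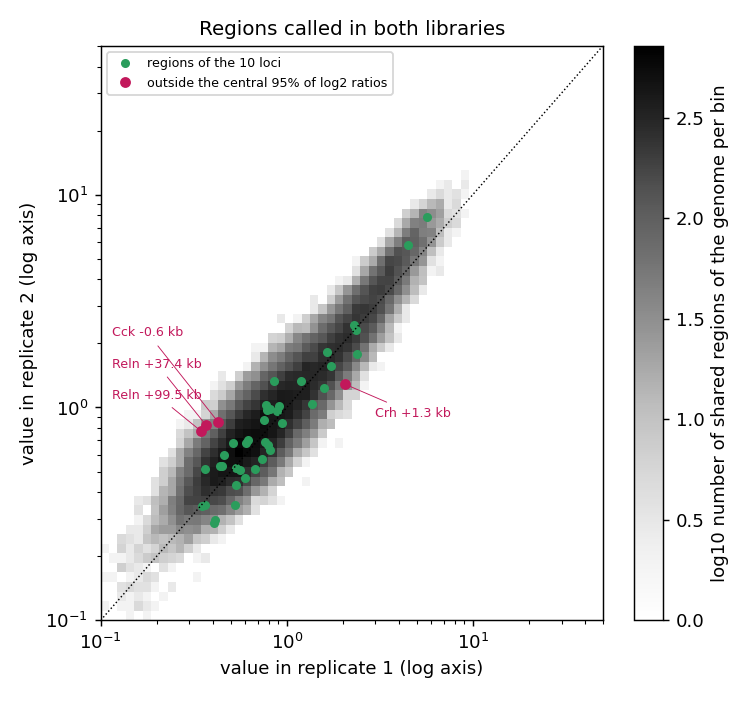
Value of each region called in both libraries, replicate 1 (horizontal, log axis) against replicate 2 (vertical, log axis), with all shared regions of the genome as grey density and those of the 10 loci as points. The 4 named points, 2 of them in Reln, lie outside the central 95% of log2 ratios.

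Regions called in 1 library only had values of up to 0.729, and most had no listed position in the other. Of the 14 regions called in replicate 2 alone, 3 held a position at a false discovery rate of at most 0.05 in replicate 1, and their values in replicate 2 ran from 0.286 to 0.697 with a median of 0.465. Of the 20 called in replicate 1 alone, 2 held one in replicate 2, and their values ran from 0.130 to 0.729 with a median of 0.421. The median of the shared regions was 0.721 in the loci and 0.865 over the genome, so the highest value called in 1 library only was above the former.

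Lists of related genes place the markers in this tissue. They are read beside all protein-coding genes, of which 61.5% were open in both libraries, at a median of 2.34. All 4 genes of GABA synthesis and transport were open in both libraries, with a median value of 0.866. Among them were Gad1, an enzyme of GABA synthesis (1.03 ± 0.273), and Slc32a1, which loads GABA into vesicles (0.699 ± 0.0453; SD, n = 2 each). Of 16 interneuron transcription factors 10 (62.5%) were open in both libraries (median 1.07), which is near the share over all genes. Maf (1.31 ± 0.00969) and Sox6 (1.28 ± 0.481), factors of the Pvalb and Sst lineage, were among the open ones, and Lhx6, Nkx2-1 and Npas1 had none. Of 12 other interneuron peptides and markers 8 (66.7%) were open (median 0.659), also near that share. The highest were Adarb2 (1.47 ± 0.449), Cnr1, the cannabinoid receptor of Cck basket cells (1.17 ± 0.0355), and Penk (0.739 ± 0.230). The peptide genes Cort, Tac2 and Pnoc had none. The median of this list was thus close to the 0.657 of the 10 markers.

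Of 18 genes for receptors and binding partners of the same signals, 12 (66.7%) were open in both libraries, 2 in 1 library and 4 in neither. The share in both libraries was near the 61.5% of all protein-coding genes. The median value of the 12 was 1.09, against 0.657 for the markers and 2.34 for all open genes. The highest were Dab1, the adaptor inside the cell that carries the reelin signal (1.89 ± 0.243), Vipr1, a VIP receptor (1.72 ± 0.0596), and Lrp8, a reelin receptor (1.58 ± 0.0519; SD, n = 2 each). The somatostatin receptor genes Sstr3 and Sstr5 and the peripheral cholecystokinin receptor gene Cckar had none. Vipr1 was thus open in both libraries while Vip was not, and Dab1 and Lrp8 exceeded every Reln region in both libraries.

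Markers of other cells were read the same way, since the tissue holds them all, beside the same 61.5% of all protein-coding genes. All 8 excitatory neuron markers were open in both libraries (median 1.48), among them Camk2a (2.35 ± 0.724) and Nrgn (2.34 ± 0.495). Of 7 astrocyte markers 4 (57.1%) were open (median 1.06). They were led by Gfap (1.62 ± 0.498), Slc1a2 (1.41 ± 0.0787) and S100b (0.713 ± 0.138), and Aldh1l1 had none. Of 7 oligodendrocyte markers 4 (57.1%) were open (median 0.985). They were led by Olig1 (1.35 ± 0.126), Cnp (1.02 ± 0.161) and Olig2 (0.948 ± 0.549), and Mog and Mag had none. Both shares were near that of all genes. Of 6 microglial markers only Cx3cr1 (16.7%) was open in both libraries (0.426 ± 0.132), and P2ry12, Tmem119 and Csf1r had none. Of 6 endothelial markers 2 (33.3%) were, Slc2a1 (2.30 ± 0.507) and Flt1 (0.497 ± 0.0807), and Pecam1, Cdh5 and Tek had none. Each ± is an SD over n = 2. The lists differ in CpG content and size, and the part of either in these medians was not tested.

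**Figure D5:**
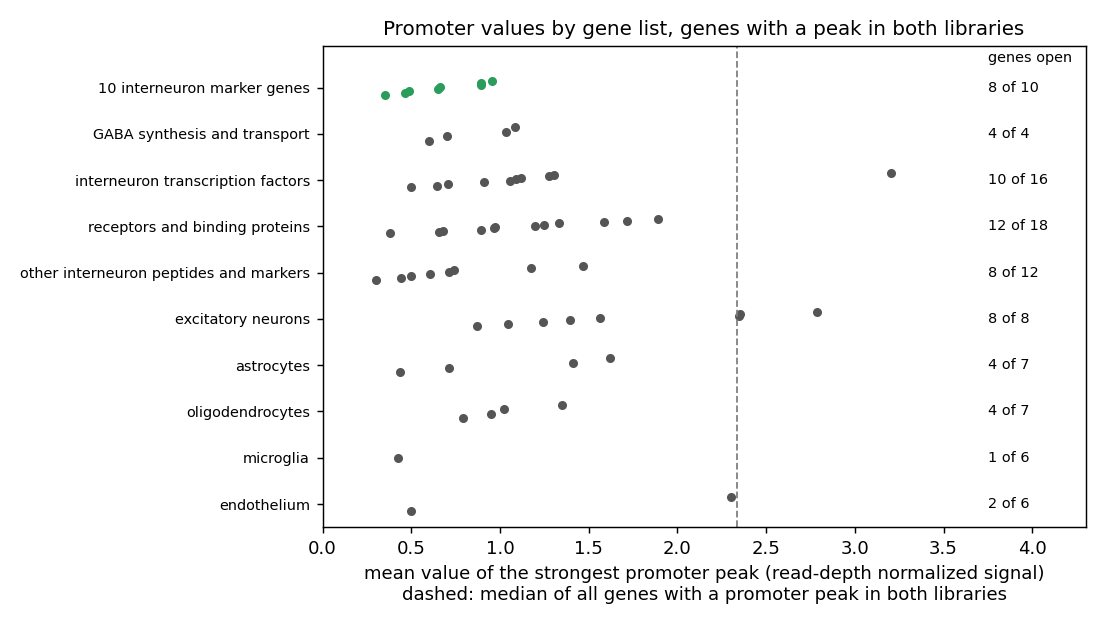
Mean value of the strongest promoter peak (horizontal, read-depth normalized signal) of each gene open in both libraries (points), by list (rows), with the number of open genes at the right and the median of all open genes, 2.34, dashed. The 10 marker genes end at 0.957, and all 8 excitatory markers are open.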

How the data were processed

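DNase-seq peaks, footprints and cut-rate tables of 2 frontal cortex libraries (1 group) were used as deposited. Per the text deposited beside the files, each library's own reads on mm10 gave its files, so peaks were not called on pooled reads. Which aligner and callers were used, and the depth, is not given in the sources used here. The deposited peak signal is read-depth normalized by the authors: 100% of values were whole multiples (to within 0.1) of 0.00565 in replicate 1 and 0.00571 in replicate 2. The authors' cut-rate table gives a q-value (false discovery rate) per position, listing those of at most 0.05, and the deposited footprints carry 1 constant score, 0.01. The longer list of each library holds 85603 and 87847 peaks.

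Peaks were assigned to GENCODE vM21 genes on GRCm38.p6 and merged across libraries at an overlap of at least 1 bp. The genes and lists (84 genes in 9 lists) were chosen with earlier results of these data known. Named were all 10 genes; of each list the 3 with the highest mean value open in both libraries and the first 3 open in neither (4 genes under this rule are not reported here); each shared promoter peak, the strongest shared region of each locus outside promoters and the 5 strongest over all. Motifs were searched on both strands. Python 3.11.15, numpy 2.4.6, pandas 2.3.3 and samtools 1.23.1 were used, and the overlap code was tested on simulated intervals. Reads from CAST/EiJ chromosomes were aligned to the C57BL/6J genome, and the effect on the values was not tested.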

Additional observations from a re-analysis of the deposited data

How the results depend on the processing

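With the authors' shorter peak list, 3 of the 10 genes (Cck, Calb1 and Calb2) were open in both libraries, the median value was 0.895, and the loci held 34 regions, 25 of them outside promoters. Counting the annotated 5′ end only, 5 genes were open with a median of 0.894. A promoter of 2.5 kb gave a median of 0.778 and moved Crh to 1.67. With a flank of 10 kb the loci held 40 regions, 25 outside promoters, and a mean of 58.5 footprints per library, against 126 at 50 kb; with 100 kb they held 133 regions. With either replicate left out, 8 genes stayed open, the median ran from 0.637 to 0.678, the regions numbered 58 to 64 and the footprints 123 to 129. The share of regions called in both libraries was 55.8%. Its exact 95% interval, 44.1% to 67.2%, gives counting error only. It treats the regions as independent, though they cluster in 10 loci and come from the same pair of libraries. It therefore measures no spread between loci or libraries. The share was 50% to 62.5% over the shorter list and the 10 kb flank, and 45.5% when peaks had to overlap by 50% of each. Of 23 values of single genes under settings that kept both libraries, 22 were identical to the main value. These settings found the same peaks again, so the count is no measure of how stable the values are. No value in both libraries was left for Pvalb, Npy, Reln, Lamp5 and Crh on the shorter list, for Pvalb, Reln and Lamp5 at the 5′ end only, and for Crh at 500 bp. No paired analysis was possible because there was 1 group.

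Neither library has a stated depth, so no counting interval is given for the peak values, and 1 group of 2 libraries allows no test between conditions. A gene without a peak was below the authors' peak call, which does not show closed chromatin in every cell.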

Other observations

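The gene of parvalbumin held a cluster of peaks with low values and low false discovery rates, seen in 1 library. In an intron of Pvalb, 11.7 to 12.4 kb from the 5′ end, replicate 1 had 3 peaks (chr15:78193889-78194080, chr15:78194181-78194381 and chr15:78194570-78194760) with values of 0.136, 0.130 and 0.141. These values stood above only 1.11%, 0.988% and 1.24% of the peaks of that library. Their lowest false discovery rates were 2.91e-06, 8.02e-05 and 3.46e-05, and the first and last of them were on the authors' shorter list. The Pvalb start of the same library had a value of 0.622 with a lowest rate of 0.0014, so by value and by false discovery rate the order was opposite. No base of the 3 peaks was repeat-masked in the reference, and replicate 2 had 0 listed positions in any of them. The cause was not tested.

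The Npy locus had 9 regions: 3 shared by the libraries, 4 seen by replicate 1 alone and 2 by replicate 2 alone. Over the genome, 53.6% of merged regions were shared. All values in the locus were low, from 0.266 to 0.537, and 9 regions are too few to set it apart.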
